A study of Homo sapiens with 16 samples.

Results

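The cholesterol synthesis and sterol regulation module was a list of 29 named genes. It held the enzymes that build cholesterol from acetyl-CoA, the sensors and transcription factors that set their level, genes of sterol transport and export, and the fatty acid genes SCD and FASN. Each gene was taken at the probe set of the deposited array table that listed its symbol, and at the brightest one where several did. Of the 29 genes, 28 had a probe set among the 18495 in the table. FDFT1, squalene synthase, had none and was not analysed here. Of the 28, 24 lay on probe sets with 1 symbol. The other 4 lay on probe sets that also listed an overlapping, neighbouring or related gene, and are given as those shared probe sets: ACAT2 with SOD2-OT1, CYP51A1 with LRRD1, HSD17B7 with its pseudogene HSD17B7P2, and SREBF2 with the microRNA gene MIR33A.

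Animal cells make cholesterol by condensing acetyl units into mevalonate, turning this into isoprenoids, joining them as squalene and closing squalene into lanosterol, which is then trimmed to cholesterol. The pathway is under feedback control: when membrane sterol is low, the escort protein SCAP carries SREBP transcription factors to the Golgi, where they are cut and freed to switch on the synthesis genes, and when sterol is high, the INSIG proteins hold SCAP back. When sterol derivatives accumulate, the LXR nuclear receptors raise the exporters ABCA1 and ABCG1.

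RNA came from H9, 1 established human embryonic stem cell line, at passage 40 to 50, and was measured on 16 whole-transcript exon arrays. The 4 groups were cells never given activin (day 0, n = 4 biological replicates) and cells after 1 day (n = 3), 3 days (n = 3) and 5 days (n = 4) with activin A at 100 ng/ml, a ligand of the nodal pathway that drives these cells towards endoderm. Replicate 4 of day 5 and of day 0 was each hybridised on a pair of technical arrays, which were averaged. Day 0 cells grew on mouse embryonic fibroblast feeders or on Matrigel, without a record of which sample was on which, in feeder-conditioned medium with 20% knockout serum replacement and 8 ng/ml basic FGF. Activin was given in RPMI-1640 while serum was raised through 0, 0.2 and 2%, and the labels do not tie a serum level to a day. Activin, base medium, the supply of serum and its lipids, and time therefore cannot be told apart in any comparison with day 0. Between day 5 and day 1, the supply of serum and its lipids and time with activin cannot be told apart either. The design has no culture in the activin medium without activin. No allele, transgene or sort was involved, and all groups share the 1 cell line.

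Values below are log2(intensity + 1), with differences as later minus earlier time ± standard error from limma, and adjusted p over all 18495 probe sets. A gene was called higher or lower at an adjusted p under 0.05. Array intensities have no read depth, and the number of samples limits the precision. The definitive endoderm markers bore out the day 5 label, with 8 of 8 higher at day 5 than at day 0, and 7 of 7 measured pluripotency markers lay below 0 in that difference, 3 of them called. The median correlation of a sample with its own group was 0.829 for day 3 replicate 2 and 0.858 for day 5 replicate 2, against 0.901 to 0.962 for the other samples. In day 3 replicate 2 the endoderm factor SOX17 was at 5.52, against 11.21 and 11.37 in the other day 3 samples, so this sample went against its label, and results that rest on it are given with and without it. It also enters the other comparisons through the shared estimate of the spread. Some markers of other cells were also called between day 5 and day 0, where 5.46% of all probe sets were. The neural factor PAX6 rose from a mean of 4.39 at day 0 to 8.73 at day 5 (1 of 5 neuroectoderm markers called). LUM rose from 4.18 to 8.74 (1 of 6 fibroblast markers), and KDR fell from 10.7 to 9.48 (1 of 5 mesoderm markers). Of the 6 fibroblast markers, 4 were below their day 0 mean at day 5 and 2 above, with a median difference of -0.34. The lowest, COL1A1, went from 10.85 to 9.05 and was not called. Of the extraembryonic markers, 0 of 5 were called. The summed intensity of the fibroblast list ran from 1624 to 5634 at day 5 and from 2104 to 5603 at day 0, and no marker was at 0 in any sample. The part of these cells, or of mouse feeder RNA, in the values below was not tested.

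Across the module, most synthesis genes lay lower at days 3 and 5 than at day 0, nearly all without passing the test across the whole array, and the exporters ABCA1 and ABCG1 lay higher at day 5. At day 5, 23 of the 28 genes were below their day 0 mean (82.1%), against 51.6% of all probe sets, and the median difference was -0.45, against -0.02 over all probe sets. The calls at day 5 were 3 of 28 (10.7%), where 5.46% of all probe sets were called: ABCA1 and ABCG1 rose (2.56% of all probe sets were called higher), and the CYP51A1 probe set fell (2.89% were called lower). In 5 genes every day 5 sample lay below every day 0 sample (17.9%, against 8.57% of all probe sets), namely FDPS, SQLE, CYP51A1, INSIG1 and SCD. In 2 genes, ABCA1 and ABCG1, every day 5 sample lay above (6.07% of all probe sets). The members were chosen with earlier results of these data known, so the shares here and at the other days describe the list and do not test it. Bulk RNA cannot tell fewer cells of a type from less RNA per cell.

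At day 3, 24 of 28 genes were below their day 0 mean (85.7%, against 51.3% of all probe sets), with a median of -0.48, against -0.01. limma called 0 of the 28, where 0.027% of all probe sets passed, and 8 had an unadjusted p under 0.05. With samples weighted by array quality, a fit whose weights did not fully converge, 14 genes were called lower, where 8.26% of all probe sets were. The day 3 samples lay wholly below the day 0 samples in 7 genes (25%, against 6.55% of all probe sets), and these were HMGCS1, MVD, FDPS, SQLE, CYP51A1, DHCR7 and SCD. The counts of 24 and 7 include day 3 replicate 2 and were not repeated without it. Without day 3 replicate 2 the median was -0.65 and the CYP51A1 probe set (-1.41, adjusted p 0.00559) and INSIG1 (-1.52, adjusted p 0.00833) were called lower, where 3.19% of all probe sets were called and 1.14% were called lower.

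At day 1, 20 of 28 genes were below their day 0 mean (71.4%, against 47.2% of all probe sets), with a median of -0.28, against 0.03. limma called 0 of them, where 0.00541% of all probe sets passed, and 0 had an unadjusted p under 0.05. With array weights 8 genes were called, where 13.7% of all probe sets were. The groups did not overlap for INSIG1 and CYP51A1, which lay below day 0 (6.62% of all probe sets), and for ABCG1, which lay above (4.86%). Between day 5 and day 1, limma called 0 of the 28 (3.33% of all probe sets), with 1 unadjusted p under 0.05, that of ABCA1, and 5 called with array weights (34.6% of all probe sets were, a larger share than among the 28). CYP51A1 lay wholly below (9.06% of all probe sets) and ABCG1 wholly above (7.08%). The first 3 comparisons share the day 0 samples, so their directions are not independent, nor are genes of 1 pathway independent of each other.

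**Figure D1:**
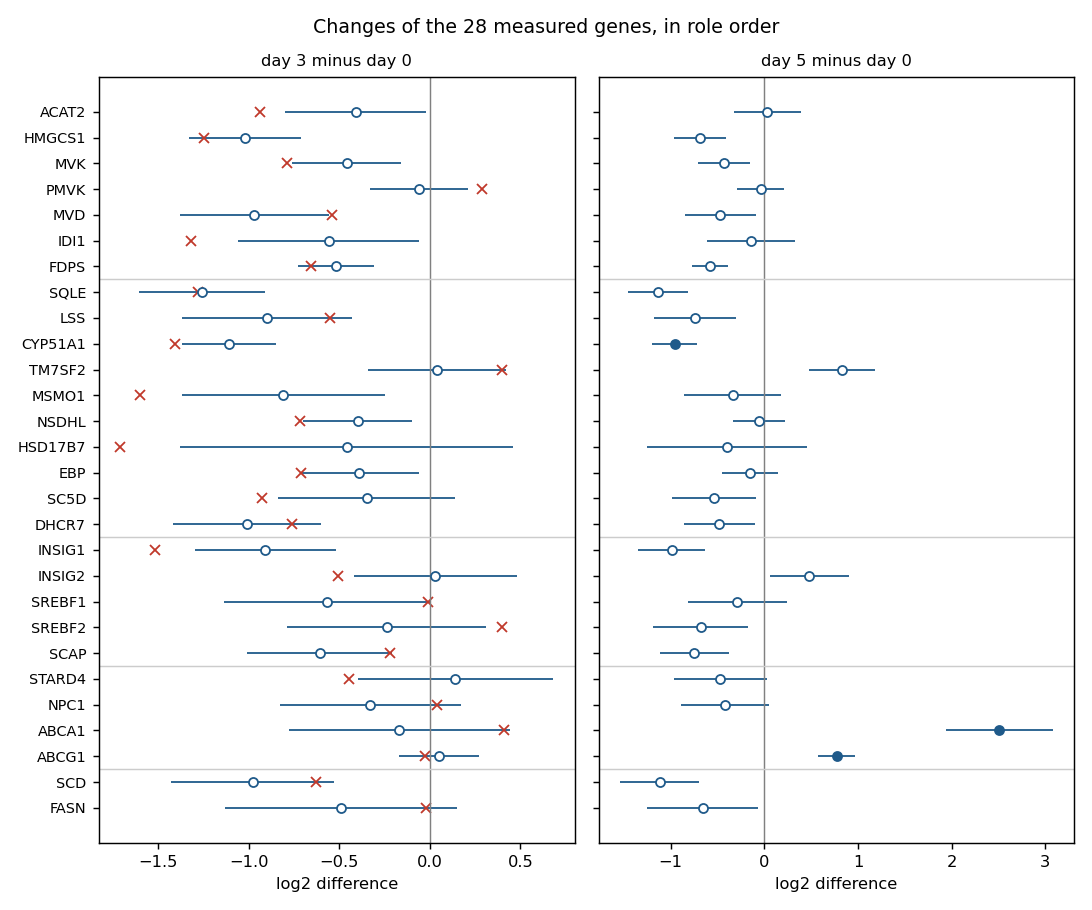
Difference in log2(intensity + 1) for the 28 measured genes, day 3 minus day 0 on the left and day 5 minus day 0 on the right, in role order from mevalonate enzymes at the top to fatty acid genes at the bottom, with grey lines between roles. Circles are limma estimates, bars are 1 standard error, filled circles have an adjusted p under 0.05, and red crosses give the day 3 value without day 3 replicate 2. Most synthesis genes lie left of 0 at both times, and ABCA1 lies at 2.51 at day 5.

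The promoter windows of 5 of the 7 members whose day 5 and day 0 samples do not overlap follow, so that the upstream sequence of these genes can be set side by side. SQLE and ABCG1 are not shown. RefSeq windows on GRCh38.p14, from 250 bases before to 50 after the start site, were searched on both strands for the NF-Y box CCAAT, whose factor assists SREBP, the E-box CACGTG, and the sterol regulatory element TCACNCCAC, with N any base. The 3 motifs do not overlap in the sequences printed. Capitals mark the matches, and ATTGG is CCAAT on the opposite strand.
FDPS, chr1:155308616-155308915, plus strand: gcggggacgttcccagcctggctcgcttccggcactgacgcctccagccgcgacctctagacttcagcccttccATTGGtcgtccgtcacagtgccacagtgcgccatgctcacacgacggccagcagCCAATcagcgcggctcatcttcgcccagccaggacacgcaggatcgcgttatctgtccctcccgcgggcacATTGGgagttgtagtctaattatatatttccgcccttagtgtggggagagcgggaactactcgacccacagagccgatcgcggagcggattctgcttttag
CYP51A1, chr7:92134428-92134727, minus strand: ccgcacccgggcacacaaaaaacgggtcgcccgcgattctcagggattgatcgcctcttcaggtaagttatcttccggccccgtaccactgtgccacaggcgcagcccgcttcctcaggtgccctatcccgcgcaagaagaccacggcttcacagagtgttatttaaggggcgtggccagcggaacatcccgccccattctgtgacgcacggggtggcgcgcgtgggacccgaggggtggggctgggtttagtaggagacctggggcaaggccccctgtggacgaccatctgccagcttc
INSIG1, chr7:155297628-155297927, plus strand: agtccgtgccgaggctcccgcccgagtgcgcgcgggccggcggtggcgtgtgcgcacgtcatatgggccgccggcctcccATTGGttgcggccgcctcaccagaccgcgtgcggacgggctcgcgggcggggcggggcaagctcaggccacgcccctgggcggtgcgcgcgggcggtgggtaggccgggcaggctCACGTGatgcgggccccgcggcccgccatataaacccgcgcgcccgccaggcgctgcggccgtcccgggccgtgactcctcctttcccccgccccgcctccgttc
SCD, chr10:100346983-100347282, plus strand: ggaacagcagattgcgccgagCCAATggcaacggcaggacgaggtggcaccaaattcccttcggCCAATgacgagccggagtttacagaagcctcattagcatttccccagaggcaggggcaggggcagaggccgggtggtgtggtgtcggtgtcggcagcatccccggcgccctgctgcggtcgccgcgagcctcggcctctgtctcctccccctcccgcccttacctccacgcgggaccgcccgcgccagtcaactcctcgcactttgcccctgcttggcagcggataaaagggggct
ABCA1, chr9:104928106-104928405, minus strand: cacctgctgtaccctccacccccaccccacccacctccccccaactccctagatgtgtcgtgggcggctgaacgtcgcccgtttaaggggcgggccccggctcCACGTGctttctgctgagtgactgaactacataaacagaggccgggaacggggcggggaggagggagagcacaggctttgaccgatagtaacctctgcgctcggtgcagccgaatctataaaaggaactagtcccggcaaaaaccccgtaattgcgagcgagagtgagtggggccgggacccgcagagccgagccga
SREBF2, chr22:41832968-41833007, plus strand, bases -137 to -98 from the start site: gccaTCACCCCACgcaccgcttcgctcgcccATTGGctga

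FDPS held 3 NF-Y boxes, SCD held 2, and INSIG1 held 1 together with 1 E-box, while ABCA1 held 1 E-box and no NF-Y box. Of the 24 members in the RefSeq table, 17 had an NF-Y box in a window, against 39.7% of all 27305 symbols there. An E-box was in 5 of 24, against 8.77% of all symbols. The sterol regulatory element as spelled was in 1 of 24, SREBF2, whose stretch is printed because it holds this element beside an NF-Y box, against 1.39% of all symbols. The CYP51A1 window held none of the 3. A match describes letters and does not show binding, and letters absent from these windows say nothing about the factor.

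Among the mevalonate enzymes, HMGCS1 and FDPS had the lowest differences from day 0 at day 5, while at day 3 these were HMGCS1 and MVD. HMGCS1, which condenses acetyl units into HMG-CoA, stood at 12.10, 12.19, 11.68 and 12.34 before activin, at 11.46, 11.38 and 12.12 after 1 day, at 10.57, 11.50 and 11.07 after 3 days and at 11.39, 10.85, 11.62 and 11.69 after 5 days. All day 3 samples lay below all day 0 samples, and at day 5 the highest sample, at 11.69, just passed the lowest of day 0. The difference was -1.02 ± 0.31 at day 3 (adjusted p 0.28, and -1.25 with 0.0581 without day 3 replicate 2) and -0.69 ± 0.28 at day 5 (adjusted p 0.221).

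FDPS, which makes farnesyl diphosphate, stood at 11.82, 11.80, 11.97 and 11.92 before activin, at 11.39, 11.85 and 11.45 after 1 day, at 11.19, 11.65 and 11.24 after 3 days and at 11.34, 11.46, 11.23 and 11.18 after 5 days. The day 0 values were tightly grouped (SD 0.08, n = 4), and all day 3 and day 5 samples lay below them. The differences were -0.52 ± 0.21 at day 3 (adjusted p 0.47) and -0.58 ± 0.19 at day 5 (adjusted p 0.113).

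The other mevalonate genes gave no call at any time. MVD, which makes isopentenyl diphosphate, differed by -0.97 ± 0.41 at day 3 (adjusted p 0.519), with day 3 samples at 8.12, 7.01 and 8.44 and day 0 samples between 8.51 and 9.09. The lowest of these, 7.01, was day 3 replicate 2, and without it the difference was -0.54. The kinase MVK differed by -0.46 ± 0.30 at day 3 and -0.43 ± 0.28 at day 5, and the kinase PMVK by -0.06 ± 0.27 and -0.04 ± 0.25. IDI1, which isomerises isopentenyl diphosphate, was divided within day 3, with 9.72 and 10.15 in replicates 1 and 3 and 12.21 in replicate 2. Its difference at day 3 was -0.56 ± 0.50, and -1.32 (adjusted p 0.073) without replicate 2, while at day 5 it was -0.14 ± 0.47. ACAT2, the thiolase that starts the pathway, was on a shared probe set that differed by -0.41 ± 0.39 at day 3 and 0.03 ± 0.36 at day 5.

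**Figure D2:**
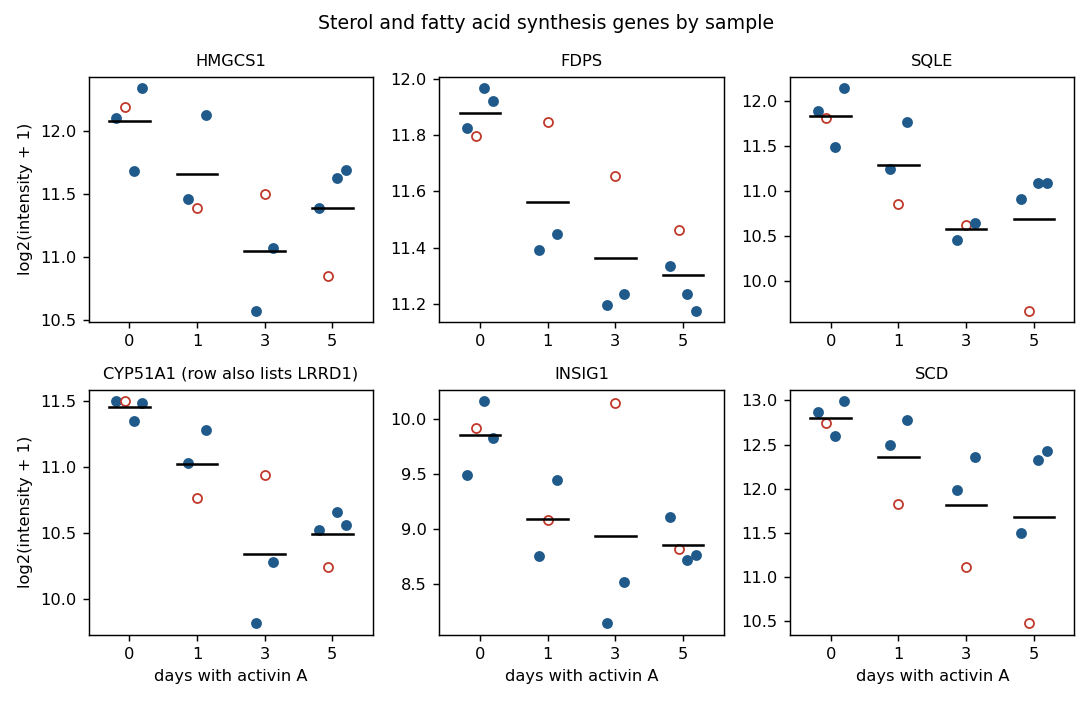
Log2(intensity + 1) of 6 synthesis and control genes in each of the 14 samples, by days with activin A. Dots are biological replicates, open red circles are replicate 2 of each day, and bars are group means. All 4 day 5 samples lie below all day 0 samples for FDPS, SQLE, CYP51A1, INSIG1 and SCD, and day 3 replicate 2 lies at 10.14 for INSIG1, within the day 0 range.

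Past squalene, SQLE and CYP51A1 carried the lower signal. SQLE, squalene epoxidase, catalyses the first oxygen-dependent step. It stood at 11.89, 11.81, 11.49 and 12.14 before activin, at 11.24, 10.86 and 11.76 after 1 day, at 10.45, 10.62 and 10.65 after 3 days and at 10.91, 9.67, 11.09 and 11.09 after 5 days. All 3 day 3 samples, replicate 2 included, and all 4 day 5 samples lay below the lowest day 0 sample, while day 1 overlapped day 0. The difference was -0.54 ± 0.35 at day 1, -1.26 ± 0.35 at day 3 (a 2.40-fold lower level, adjusted p 0.232) and -1.14 ± 0.32 at day 5 (2.21-fold, adjusted p 0.0595). It missed the threshold at day 5, and missed it again without any 1 of the day 5 and day 0 samples (adjusted p 0.0597 to 0.158). Without the low day 5 replicate 2 it measured -0.80 (adjusted p 0.0991). It passed narrowly without day 3 replicate 2 (adjusted p 0.0496), with the dimmest 25% of probe sets left out (0.0427) and with a pseudocount of 16 (0.0454). With a variance trend and robust eBayes it also passed (0.0472).

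CYP51A1 is the lanosterol demethylase, and its probe set also lists LRRD1, and the share of its signal from that gene was not tested. The probe set stood at 11.50, 11.50, 11.34 and 11.48 before activin, at 11.03, 10.76 and 11.28 after 1 day, at 9.82, 10.94 and 10.28 after 3 days and at 10.53, 10.24, 10.66 and 10.56 after 5 days. Samples of each later day lay wholly below day 0. The differences were -0.43 ± 0.26 at day 1, -1.11 ± 0.26 at day 3 (adjusted p 0.178) and -0.96 ± 0.24 at day 5 (1.94-fold lower, adjusted p 0.0358), the 1 synthesis probe set called. That call was lost when any 1 of the 8 day 5 and day 0 samples was left out, with adjusted p between 0.0602 and 0.0978 and the difference between -1.01 and -0.87.

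The remaining enzymes of the lanosterol branch gave no call with all samples weighted alike and showed contrasting patterns. DHCR7, which reduces a ring double bond, stood at 10.29, 9.85 and 10.90 at day 3 and between 11.24 and 11.45 at day 0, without overlap and with a difference of -1.01 ± 0.41 (adjusted p 0.483). At day 5 it spread between 9.84 and 11.65, across the whole day 0 range (-0.48 ± 0.38). LSS, which closes the sterol ring, differed by -0.90 ± 0.47 at day 3 and -0.74 ± 0.44 at day 5. TM7SF2, a sterol reductase, was the 1 enzyme above 0 by more than its error at day 5 (0.83 ± 0.35, adjusted p 0.242), with 10.87, 10.11, 11.57 and 11.29 at day 5, against 10.37, 10.03, 10.36 and 9.77 at day 0. The groups overlapped through day 5 replicate 2, at 10.11. Without replicate 2 of days 3 and 5 together TM7SF2 was called higher (1.11, adjusted p 0.0173), as it was with array weights (1.21, adjusted p 0.00241). In those fits 912 and 1330 of all 18495 probe sets were called higher.

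MSMO1, the sterol methyl oxidase, and the shared probe set of HSD17B7, a sterol ketoreductase, followed IDI1 in their split at day 3. MSMO1 stood at 10.18, 13.14 and 11.35 in day 3 replicates 1, 2 and 3, and HSD17B7 at 7.19, 10.93 and 7.20. Their differences at day 3 were -0.81 ± 0.56 and -0.46 ± 0.92 with all samples, and -1.60 (adjusted p 0.0776) and -1.71 (adjusted p 0.329) without replicate 2. At day 5 they were -0.34 ± 0.52 and -0.40 ± 0.85. NSDHL, EBP and SC5D, which trim and rearrange the ring, differed by -0.06 ± 0.28, -0.15 ± 0.30 and -0.54 ± 0.45 at day 5. Of the 17 measured synthesis enzymes, 13 were below their day 0 mean at day 1, 16 at day 3 and 15 at day 5, with medians of -0.11, -0.52 and -0.43. Without day 3 replicate 2 the day 3 median was -0.79.

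Of the sensors and factors, INSIG1 lay low and the SREBP genes gave no call. INSIG1, which retains SCAP and is itself a known SREBP target, stood at 9.50, 9.92, 10.16 and 9.83 before activin, at 8.75, 9.08 and 9.44 after 1 day, at 8.15, 10.14 and 8.52 after 3 days and at 9.11, 8.82, 8.72 and 8.76 after 5 days. All day 1 and all day 5 samples lay below day 0, and at day 3 replicate 2 alone lay within the day 0 range. The differences were -0.76 ± 0.39 at day 1 (adjusted p 0.928), -0.91 ± 0.39 at day 3 (adjusted p 0.522) and -0.99 ± 0.36 at day 5 (1.99-fold lower, adjusted p 0.157). Without day 3 replicate 2 it was called at day 3 (-1.52, adjusted p 0.00833) and at day 5 (-0.99, adjusted p 0.0124). Leaving out any 1 of the day 5 and day 0 samples instead gave no call at day 5 (adjusted p 0.203 to 0.307). In the day 5 comparison without that sample 5 of the 28 genes were called, 3 of them lower (SQLE, CYP51A1 and INSIG1), where 8.73% of all probe sets were called and 4.66% were called lower. The size of the day 5 difference was the same in both fits, and the spread that the test used was the part that differed.

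INSIG2, the paralogue with the same retaining role, lay on the other side, at 0.48 ± 0.42 at day 5 (adjusted p 0.647), with 8.78, 10.02, 8.62 and 8.49 at day 5, against 8.08, 8.66, 8.51 and 8.76 at day 0. The highest of these was day 5 replicate 2. Whether INSIG1 and INSIG2 differ in their change was not tested. The shared probe set of SREBF2, the SREBP gene linked most closely to cholesterol, differed by -0.24 ± 0.55 at day 3 and -0.68 ± 0.51 at day 5. At day 3 it stood at 11.49, 9.69 and 11.76, so replicates 1 and 3 lay above the day 0 range of 10.99 to 11.45. SREBF1, the SREBP gene linked more to fatty acids, differed by -0.57 ± 0.57 and -0.29 ± 0.53. It stood at 7.99, 6.45 and 8.24 at day 3 and at 7.62, 6.31, 8.57 and 8.88 at day 5, against 7.79 to 8.28 at day 0. SCAP differed by -0.61 ± 0.40 and -0.75 ± 0.37 (adjusted p 0.331 at day 5), with replicate 2 lowest at both days. Without day 3 replicate 2 the median day 3 difference of the sensors and factors moved from -0.57 to -0.22.

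The exporter ABCA1 showed the largest difference of the 28 genes at day 5. ABCA1 hands cholesterol and phospholipid to apolipoprotein A-I at the cell surface. It stood at 7.05, 6.98, 6.36 and 7.16 before activin, at 8.11, 6.78 and 7.16 after 1 day, at 7.13, 5.57 and 7.46 after 3 days and at 8.80, 8.02, 10.15 and 10.62 after 5 days. Day 1 and day 3 overlapped day 0, and every day 5 sample exceeded every day 0 sample, while day 1 replicate 1, at 8.11, exceeded 1 of them. The rise was 2.51 ± 0.57 at day 5 over day 0 (5.71-fold, adjusted p 0.0202). The call was lost without day 0 replicate 1 (0.0537), 2 (0.0551) or 3 (0.0631), or day 5 replicate 3 (0.0604) or 4 (0.0515), and the difference stayed between 2.11 and 2.97. Between day 5 and day 1 the difference was 2.05 ± 0.61 (adjusted p 0.099, and 0.0475 without day 3 replicate 2, where 3.54% of all probe sets were called higher).

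ABCG1, which exports cholesterol to lipoprotein particles, was among the dimmest 25% of probe sets. It stood at 5.35, 4.90, 5.27 and 4.77 before activin, at 5.38, 5.52 and 5.42 after 1 day, at 5.03, 5.30 and 5.05 after 3 days and at 5.56, 5.91, 5.79 and 6.10 after 5 days. The day 5 samples lay above every sample of the other days. The rise at day 5 over day 0 was 0.77 ± 0.20 (1.70-fold, adjusted p 0.046), and the call was lost without any 1 of the 8 samples (adjusted p 0.0568 to 0.138). It was also lost with technical array 1 only, with only the groups compared, with a pseudocount of 16, and with a variance trend and robust eBayes. The call stayed with technical array 2 only (adjusted p 0.0439), median centring (0.0463) and quantile normalization (0.045). The technical arrays of day 0 replicate 4 differed by 0.35 for this gene, the widest gap of the module at day 0.

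The transporters inside the cell gave no call. NPC1, the membrane protein that moves cholesterol out of lysosomes, differed by -0.42 ± 0.47 at day 5, with the 9.50, 8.12, 10.23 and 10.43 of day 5 spread around the 9.68, 9.77, 9.79 and 10.71 of day 0. A second probe set, which lists RMC1 besides NPC1, gave 0.12 ± 0.22, so the direction for NPC1 is not settled. STARD4, a soluble sterol carrier, differed by -0.47 ± 0.50 at day 5, with 10.19, 10.81, 9.06 and 8.98 at day 5, against 9.94, 10.39, 10.42 and 10.17 at day 0. Replicates 3 and 4 of day 5 lay below day 0, and replicate 2 lay above it.

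**Figure D3:**
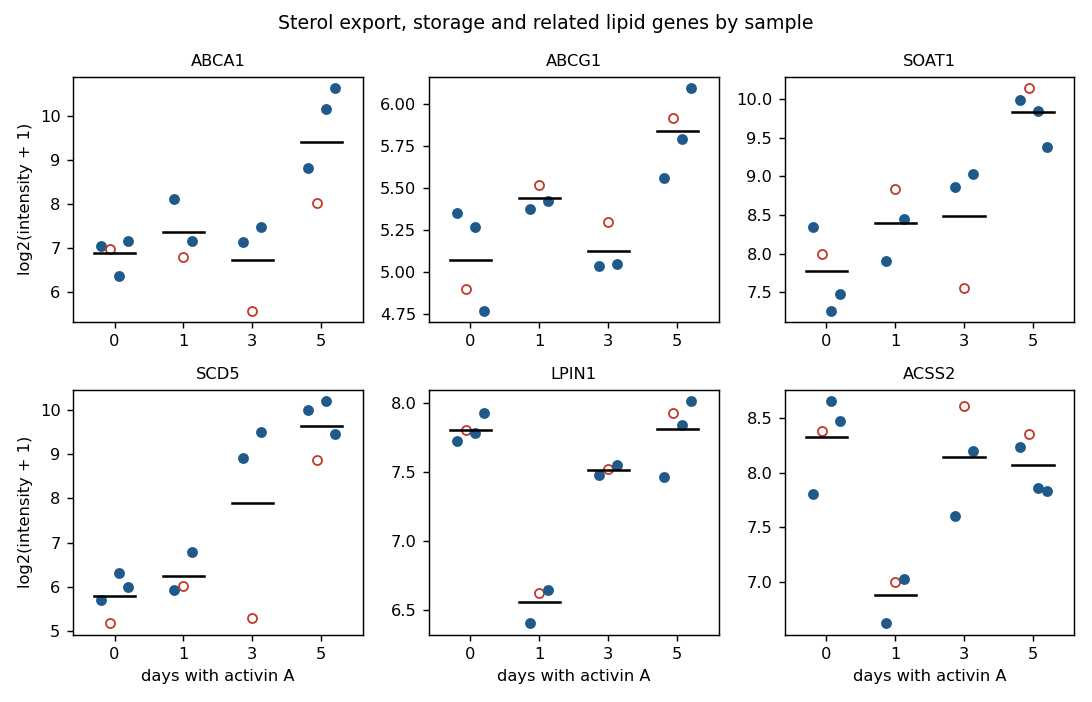
Log2(intensity + 1) of the exporters ABCA1 and ABCG1 and of 4 related lipid genes outside the module in each of the 14 samples, by days with activin A. Dots are biological replicates, open red circles are replicate 2 of each day, and bars are group means. ABCA1, ABCG1, SOAT1 and SCD5 have all 4 day 5 samples above all day 0 samples, and LPIN1 and ACSS2 have all 3 day 1 samples below all day 0 samples.

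The fatty acid pair lay in the same direction as the sterol enzymes. SCD, the desaturase that makes oleate, stood at 12.87, 12.74, 12.60 and 12.99 before activin, at 12.50, 11.82 and 12.78 after 1 day, at 11.99, 11.12 and 12.36 after 3 days and at 11.50, 10.48, 12.32 and 12.43 after 5 days. Day 3 and day 5 lay wholly below day 0, with replicate 2 the lowest sample at days 1, 3 and 5. The differences were -0.98 ± 0.45 at day 3 (adjusted p 0.573) and -1.12 ± 0.42 at day 5 (2.17-fold lower, adjusted p 0.164). FASN, fatty acid synthase, differed by -0.49 ± 0.64 and -0.66 ± 0.59, and its 4 day 5 samples at 10.01, 9.0, 11.46 and 11.62 spread across the day 0 range of 10.83 to 11.66. Without day 3 replicate 2 its day 3 difference was -0.02.

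Outside the module, 73 further genes of sterol and lipid metabolism were listed in 6 groups, and 65 had a probe set. Among 16 measured fatty acid genes, 1 rose at day 5 over day 0 and 0 fell, a share near the 5.46% of all probe sets called. The 1 was SCD5, the second human stearoyl desaturase, at 10.01, 8.87, 10.21 and 9.46 at day 5, against 5.71, 5.17, 6.30 and 5.98 at day 0. The rise was 3.85 ± 0.71 (14.40-fold, adjusted p 0.00719), and it passed without each of the 8 samples in turn (0.0113 to 0.0296). At day 3 SCD5 measured 8.91 in replicate 1, 9.52 in replicate 3 and 5.30 in replicate 2. SCD and SCD5 thus lay on opposite sides of day 0 at day 5, and the difference between them was not tested.

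At day 5 over day 1, 3 of the 16 fatty acid genes were called higher (18.8%) and 0 lower, where 3.33% of all probe sets were called. These were SCD5, LPIN1 and ACSS2. For SCD5 this call held without day 5 replicate 2 (adjusted p 0.0381). It was lost without any other day 5 or day 1 sample (0.0614 to 0.143). LPIN1, a phosphatidate phosphatase, and ACSS2, which makes acetyl-CoA from acetate, were lowest at day 1. LPIN1 stood at 7.73, 7.80, 7.78 and 7.93 before activin, at 6.41, 6.63 and 6.65 after 1 day, at 7.48, 7.52 and 7.55 after 3 days and at 7.46, 7.93, 7.84 and 8.02 after 5 days. All 3 day 1 samples lay below every other sample, and all 3 day 3 samples lay below every day 0 sample. It rose by 1.25 ± 0.20 at day 5 over day 1 (adjusted p 0.00504), and at day 1 it differed from day 0 by -1.25 ± 0.20 (adjusted p 0.0649, and 0.022 without day 3 replicate 2). ACSS2 stood at 6.62, 7.0 and 7.03 at day 1, below the 7.81 to 8.66 of day 0 and the 7.84 to 8.35 of day 5. Its rise at day 5 over day 1 was 1.19 ± 0.29 (adjusted p 0.0418), lost without any 1 of those 7 samples (0.0627 to 0.216).

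Of 14 measured uptake, transport and storage genes, 2 rose at day 5 over day 0 (2.56% of all probe sets did) and 0 fell (2.89%). SOAT1, which esterifies cholesterol for storage, stood at 9.99, 10.15, 9.85 and 9.38 at day 5, against 8.34, 8.00, 7.26 and 7.48 at day 0, and rose by 2.07 ± 0.36 (4.21-fold, adjusted p 0.00516). The probe set of NPC2, the soluble partner of NPC1, also lists SYNDIG1L. It stood at 13.30, 13.40, 13.49 and 13.18 at day 5, against 11.57, 11.70, 12.03 and 11.70 at day 0, and rose by 1.59 ± 0.23 (3.02-fold, adjusted p 0.0013) and by 1.79 ± 0.24 over day 1 (adjusted p 0.0021). In both the groups were clear of each other, and both calls against day 0 held without each of the 8 samples (largest adjusted p 0.0198 and 0.00724).

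Of 6 measured oxysterol and bile acid enzymes, 1 was called, at day 5 over day 1, where 3.33% of all probe sets were called. It was CYP27A1, the mitochondrial sterol hydroxylase, which rose by 2.09 ± 0.38 (adjusted p 0.0103, and 0.0696 without day 1 replicate 1). At day 5 it differed by 1.25 ± 0.35 from day 0 (adjusted p 0.061). In the other 3 groups limma called 0 genes in the 4 comparisons. Among 6 measured LXR genes, with 1 at an unadjusted p under 0.05 at day 5, the LXR target MYLIP differed by -1.11 ± 0.45 and the LXR gene NR1H3 by -0.45 ± 0.49 at day 5 from day 0. Among 8 measured SREBP processing and degradation genes, with 0 at an unadjusted p under 0.05 at day 5, ERLIN1 differed by -0.41 ± 0.22 and PAQR3 by -0.37 ± 0.46. Among 15 measured genes of isoprenoid side branches, with 2 at an unadjusted p under 0.05 at day 5, PDSS2, a subunit of the enzyme for the coenzyme Q tail, differed by -1.38 ± 0.44 (adjusted p 0.0943, falling to 0.00678 with day 3 replicate 2 left out), while ICMT, a methyltransferase of prenylated proteins, differed by -0.68 ± 0.42.

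Replicate 2 departed from the other replicates of its day at days 1, 3 and 5 and much less at day 0, in the module as on the whole array. At day 3 it was the highest sample in 15 of 28 genes and the lowest in 12, at day 5 in 11 and 15, at day 1 in 12 and 15, and at day 0 in 1 and 8. Over all probe sets it was highest in 46.4% and lowest in 44.8% at day 3, in 38.7% and 39% at day 5, in 41.7% and 42.1% at day 1, and in 23.4% and 21.9% at day 0. It differed by 1 or more on the log2 scale from the mean of the others in 0 of the 28 genes before activin, in 5 after 1 day, in 19 after 3 days and in 14 after 5 days. Over all probe sets the shares were 6.97%, 19.2%, 50.3% and 38.7% in the same order. At all 3 activin times replicate 2 lay above the others in 11 genes (31.3% of all probe sets did), among them HSD17B7, MSMO1, IDI1, SC5D and STARD4, and below them in another 11 (30.8%), among them SREBF1, SREBF2, SCAP, FASN, SCD and ABCA1. At day 3 the deviation ran from -1.94 for SREBF2 and -1.72 for ABCA1 to 2.37 for MSMO1 and 3.74 for HSD17B7. The labels say nothing of replicate 2 beyond its number.

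**Figure D4:**
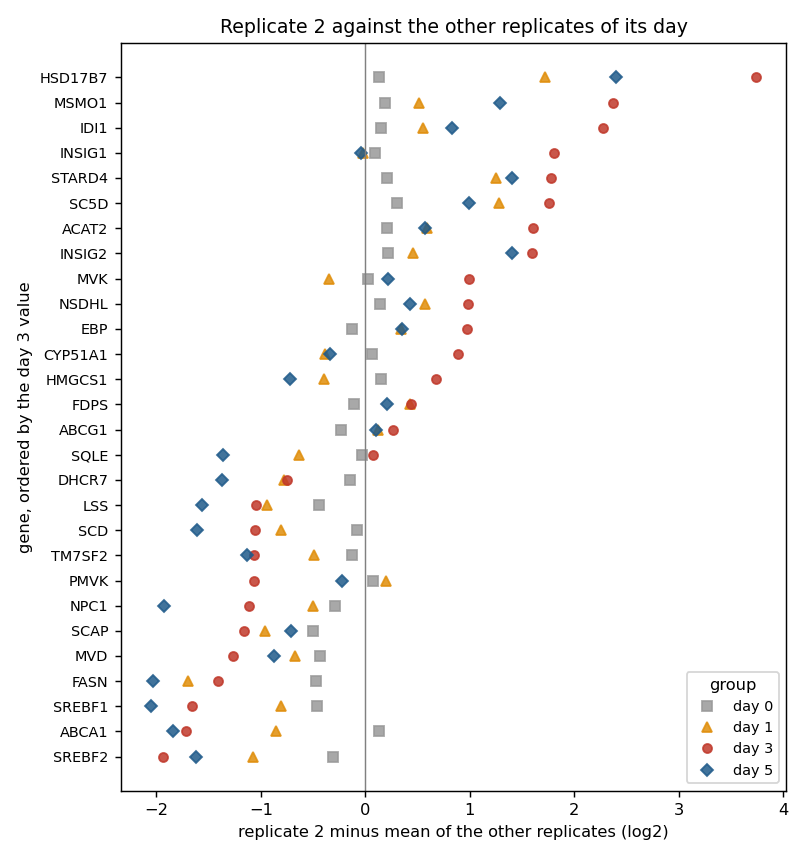
Replicate 2 minus the mean of the other replicates of the same day, in log2(intensity + 1), for the 28 measured genes ordered by the day 3 value. Grey squares are day 0, orange triangles day 1, red circles day 3 and blue diamonds day 5. Day 0 values lie near 0, and at day 3 they run from -1.94 for SREBF2 to 3.74 for HSD17B7.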

How the data were processed

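The gene-level values are intensity on a linear scale as deposited by the authors, and the genome build was hg18 per the submitters' processing notes. How probe signals were summarised, background-corrected and normalized is not given in the sources used here. Array medians ran from 245.1 to 246.3, values from -0.273 to 30307.1, and 636 were below 0. From the deposited intensities, log2(value + 1) was computed and the technical arrays of a sample were averaged with avearrays, leaving 14 samples. Of the probe sets, 14577 carried 1 symbol, 2849 several and 1069 none.

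All 4 groups entered 1 limma fit (lmFit and eBayes, version 3.58.1, R 4.3.3) that held group alone, with 10 residual degrees of freedom and Benjamini-Hochberg adjustment over 18495 probe sets. The fit was tested on simulated data. Labels call the samples biological replicates but name no separate cultures, so p-values measure the spread between these samples. In each of the 4 comparisons made, at least 1 same-numbered pair of samples did not deviate together (correlations from -0.284 to 0.513), so replicate number was not used as a block. Between day 3 and day 1, which were not compared, all 3 pairs did (0.188 to 0.509), and between day 5 and day 3 they ran from -0.143 to 0.645. All 28 measured members are named. Genes of other lists are named where past the test, or else the 2 with the largest day 5 difference. The members and lists were chosen with earlier results of these data known. Alternatives were each technical array alone, the block, only the groups compared, median centring, quantile normalization, pseudocount 16, the dimmest 25% left out, robust eBayes with a trended prior variance, weighted arrays, 1-symbol probe sets, every probe set of a member, and samples left out. Some genes of the pathway are not reported here. Promoters are from RefSeq, GRCh38.p14. Python 3.11.15 drew the figures.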

Additional observations from a re-analysis of the deposited data

Results flagged for a closer look

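In groups of 4 samples, 1 sample's gap to its nearest neighbour exceeded Dixon's critical share of the group's range in 5 of the 56 groups examined, and chance alone passes about 1 group in 20. Among day 5 samples, MVK was lowest in replicate 4, at 7.52, and SQLE was lowest in replicate 2, at 9.67. Among day 0 samples, the CYP51A1 probe set was lowest in replicate 3, at 11.34, SREBF1 was lowest in replicate 2, at 7.79, and NPC1 was highest in replicate 4, at 10.71. For SQLE the day 5 difference from day 0 was -0.80 without that sample, against -1.14 with it.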

How the results depend on the processing

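No member's difference changed sign while called, and 2043 member values kept their side of the threshold, 55 came to pass it and 26 no longer passed. The spread between replicates limits the calls, and the cause of the moves below was not tested. Members called at day 5 over day 0 (3 of 28) numbered 0 to 5 leaving out 1 sample. They numbered 6 without replicate 2 of days 3 and 5 together (3 higher and 3 lower). With array weights, whose estimation did not fully converge, they numbered 9 (3 higher and 6 lower). At day 3 (0) they numbered 0 to 2, 6 and 14 in the same order. Between day 5 and day 1 (0) they were 0 to 1, 1 and 5, and at day 1 (0) they were 8 with array weights. With the replicate block, members called at day 5 over day 0 were ABCA1, SQLE (adjusted p 0.0378), CYP51A1 (0.0466) and SCD (0.0452), 4 in all, and ABCG1 was not. In that fit 1448 of all 18495 probe sets were called.

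Probe sets called at day 5 over day 0 (1009) were 549 to 1614 leaving out 1 sample, 1835 without both replicates 2, and 3000 with array weights. Between day 5 and day 1 (616) they were 170 to 1130, 1503 and 6392, and 398 in a fit of only those groups. At day 3 (5) they were 0 to 590, 1057 and 2800, 3 with technical array 2 only, 1 with the replicate block, 0 with only the groups compared, 1 with a variance trend, and 8 with pseudocount 16. At day 1 (1) they were 0 to 46, 122 and 2543, 0 with the replicate block, 20 with only the groups compared, 12 without the dimmest 25%, 12 with a variance trend, and 17 with pseudocount 16.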
